A study of Saccharomyces cerevisiae with 40 samples.

Results

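Haploid and diploid ancestors of a laboratory evolution study in budding yeast, Saccharomyces cerevisiae, were compared by their messenger RNA. The comparison took the 2 arrays labelled as wild-type haploid ancestor and the 2 arrays labelled as wild-type diploid without mention of minimal medium, which makes 4 of the 40 arrays of the series. All 4 cultures had 18 generations of growth without stress and were harvested at mid log phase, and none had been through selection. The labels name no strain, genotype, mating type or marker for either ploidy, and they do not say whether 2 arrays of a label came from separate clones or cultures. The p-values below therefore measure only the spread between these arrays. For the 2 diploid arrays that spread may be technical, while the 2 haploid arrays also differed in mating-type pattern, as described below. The other 36 arrays were used only to look at the same genes again. Of these, 21 were diploid. They were lines evolved at 39 °C applied abruptly or gradually or at 30 °C, a heat-evolved line named H2 after its return to 30 °C, heat lines and the ancestor on minimal medium, and unevolved clones with an altered copy number of chromosome III. The other 15 were populations evolved at pH 8.6, spores from that evolution and spores of the 39 °C line.

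Haploid yeast exists as a cells and alpha cells, which find each other through peptide pheromones and fuse. Genes for one pheromone and for the receptor of the other are used by 1 mating type only. A common set, including the G protein and the kinase pathway behind the receptors, is used by both. In a diploid that carries both mating-type alleles, the a1 and alpha2 proteins form a repressor that shuts off this common set, while alpha2 and the lack of alpha1 keep the type-specific genes off.

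Levels are log2 signals. Values of the 4 arrays were quantile-normalized again together, because each array appeared to come from a different normalization run. The labels name no runs, which were inferred from values identical on different arrays. No run held both a haploid and a diploid ancestor, so run and ploidy cannot be told apart in these 4 arrays. Scaled arrays report each transcript relative to the others, and less RNA per cell and fewer cells cannot be told apart. No chromosome stood apart, since the median of each chromosome lay within 0.0397 of 0 on each of the 4 arrays. The SD of log2 differences over genes was 0.463 between the haploid arrays, 0.345 between the diploid arrays and 0.443 to 0.503 between a haploid and a diploid array.

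Of 5300 genes tested, limma called 21 higher in the haploid arrays, 0.396% of the genes, and 3 lower, 0.0566%. All 12 measured members of a list of haploid-specific genes were among the 21. That list was chosen with earlier results of these data known, so the count is no independent support. The median difference of that list was 3.31, against -0.03 over all genes tested. Of these 12, limma called 8 on the deposited values, 7 when diploid array 1 was left out and 2 in a fit of all 40 arrays at once. Without an adjustment for multiple testing, 153 genes were higher and 75 lower at p under 0.05. With 2 arrays against 2, the smallest p an exact permutation test of a single gene can give is 0.333, so the calls rest on the spread that limma shares between genes.

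The rule of keeping genes by non-overlap alone was much looser. Both haploid arrays lay above both diploid arrays for 656 genes, 12.4% of those tested, and below both for 953 genes, 18.0%. These shares depended on the scaling, since the deposited values, whose median difference over all genes was 0.40, gave 906 genes above and 8 below. Of more use was the gap, the smallest of the 4 haploid minus diploid differences of a gene. It reached 1, a 2-fold change, for 35 genes higher in the haploids (0.660%) and 4 genes lower (0.0755%). The gap was this wide in 23 of the 24 genes that passed limma. Just inside the limit stood STE3 with a gap of 1.003 and just outside it SGA1 with 0.986.

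**Figure D1:**
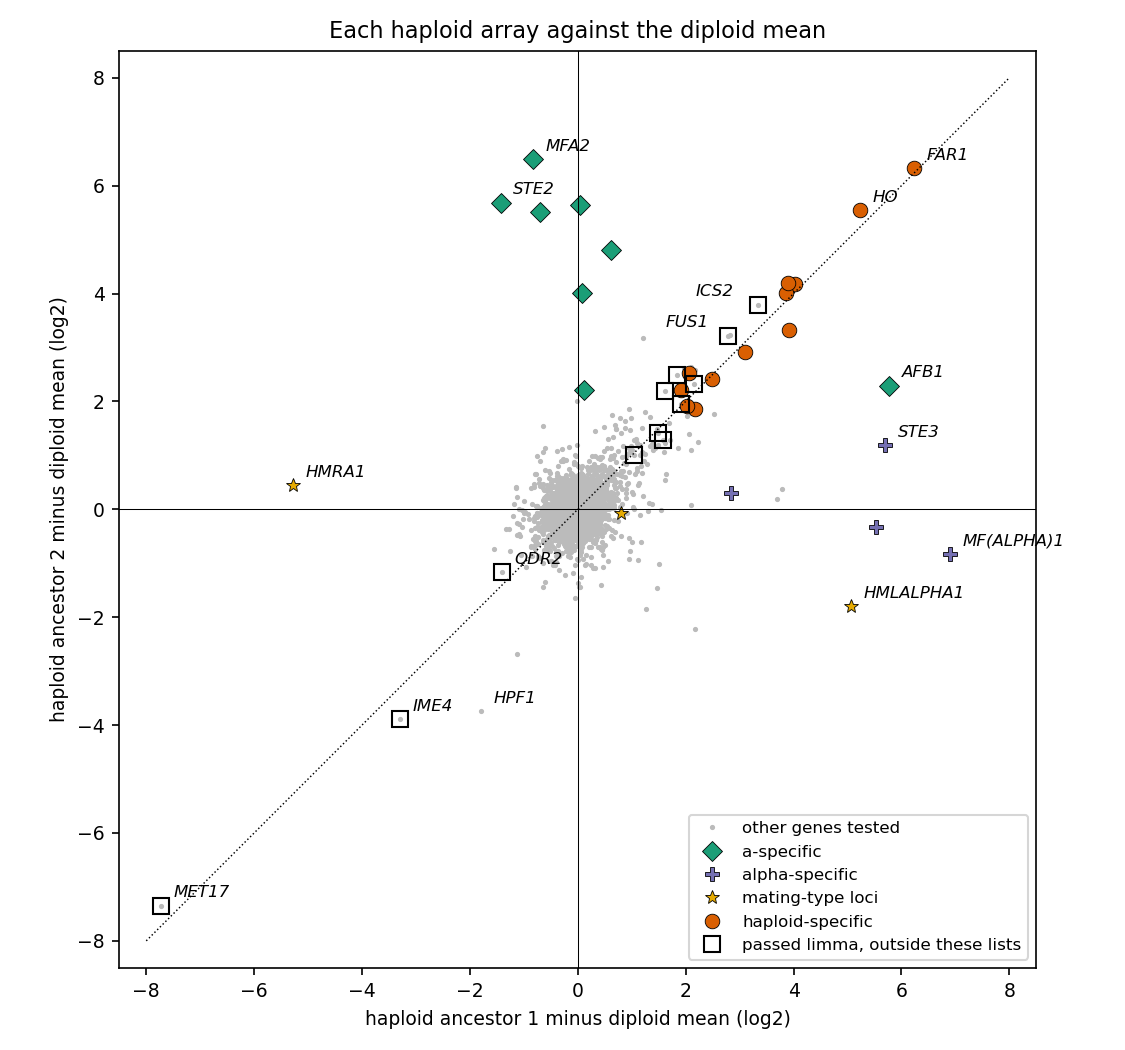
Log2 difference of haploid ancestor 1 (x axis) and haploid ancestor 2 (y axis) from the mean of both diploid ancestors, 1 point per gene of the 5300 tested, with a dotted line of equal difference. Haploid-specific genes and most other genes that passed limma lie along the line, the a-specific genes other than AFB1 spread along the y axis, and the alpha-specific genes spread along the x axis.

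The pheromone response pathway was the first part of the haploid-specific set. FAR1, the inhibitor that arrests the cell cycle in G1 during mating, read 10.28 and 10.36 on the haploid arrays and 3.70 and 4.38 on the diploid arrays. Both diploid values were below the background level of 4.49 to 4.65, so FAR1 was at least 52.3-fold higher in the haploids (n = 2 per group, limma adjusted p = 0.000341). GPA1, the G protein alpha subunit, read 10.52 and 10.66 against 6.58 and 6.72. The haploid values stood 15.3-fold above the diploid ones, a difference of 3.94 ± 0.16 SE (limma adjusted p = 0.000341). STE18, the gamma subunit, read 8.17 and 7.58 against 4.14 and 4.38, which was below background in the diploids, and rose at least 9.61-fold (limma adjusted p = 0.00828). STE4, the beta subunit that passes the signal on, read 10.60 and 10.54 against 8.35 and 7.89. Unlike STE18, it was above background in the diploids, and its difference was 2.45 ± 0.20 (limma adjusted p = 0.0082).

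FUS3, the mating MAP kinase, stood at 9.23 and 9.38 in the haploids and at 5.30 and 5.12 in the diploids, a 17.1-fold rise (limma adjusted p = 0.000499). STE5, the scaffold that holds the kinases together, differed less, with 9.43 and 9.32 against 7.59 and 7.21. The groups did not overlap for either gene, and the STE5 difference was 1.97 ± 0.19 (limma adjusted p = 0.0138). SST2, the regulator that switches the G protein off again, read 9.81 and 9.62 against 6.39 and 7.01 and rose by 3.01 ± 0.24 on the log2 scale (limma adjusted p = 0.0082).

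The signalling components that mating shares with other pathways did not move as a block. Of 13 such genes, 1 passed limma, and the median difference was 0.09. That gene was TEC1, the partner of Ste12 in filamentous growth, with 9.97 and 10.55 in the haploids against 8.19 and 8.51 in the diploids (difference 1.91 ± 0.24, limma adjusted p = 0.0402). STE12, the transcription factor at the end of the pathway, read 9.82 and 9.93 against 9.03 and 8.85, groups that did not overlap, but its adjusted p was 0.129 by limma. The kinases STE20, STE11 and STE7 had haploid values of 10.86 and 10.82, 8.90 and 8.85, and 8.17 and 8.27. Their diploid values were 10.41 and 10.89, 8.77 and 8.87, and 8.24 and 8.42, so the groups overlapped for all 3 kinases.

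Genes that act on DNA breaks and their repair made up most of the rest of the list. HO, the endonuclease that cuts the mating-type locus to start switching, read 10.84 and 11.16 against 5.41 and 5.82. It was 41.8-fold higher in the haploids (difference 5.39 ± 0.21, limma adjusted p = 0.000341). The arrays report the HO transcript only, and whether the gene was intact was not measured. NEJ1, a regulator of nonhomologous end joining, read 9.35 and 9.66 against 5.28 and 5.64 and was 16.5-fold higher (limma adjusted p = 0.00104). Of the 6 end-joining genes tested, NEJ1 alone passed limma, and the list's median difference was -0.08. RDH54, which acts in recombination, read 10.68 and 10.36 against 8.38 and 8.64 and was 4.02-fold higher (limma adjusted p = 0.0124).

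RME1, a repressor of entry into meiosis, read 10.12 and 10.57 in the haploids and 8.14 and 7.96 in the diploids, a 4.90-fold rise (limma adjusted p = 0.00939). AXL1, needed for the axial budding of haploid cells and for a-factor processing, read 8.99 and 9.29 against 7.08 and 7.07 and was 4.19-fold higher (limma adjusted p = 0.00939). The other 10 bud site genes did not pass. The nearest was AXL2, a landmark of axial budding, with a difference of 0.71 ± 0.16 (limma adjusted p = 0.385). The tested genes next to the haploid-specific ones on the chromosome did not pass limma, with differences between -0.68 at YLR264C-A beside NEJ1 and 0.84 at NQM1 beside RME1.

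**Figure D2:**
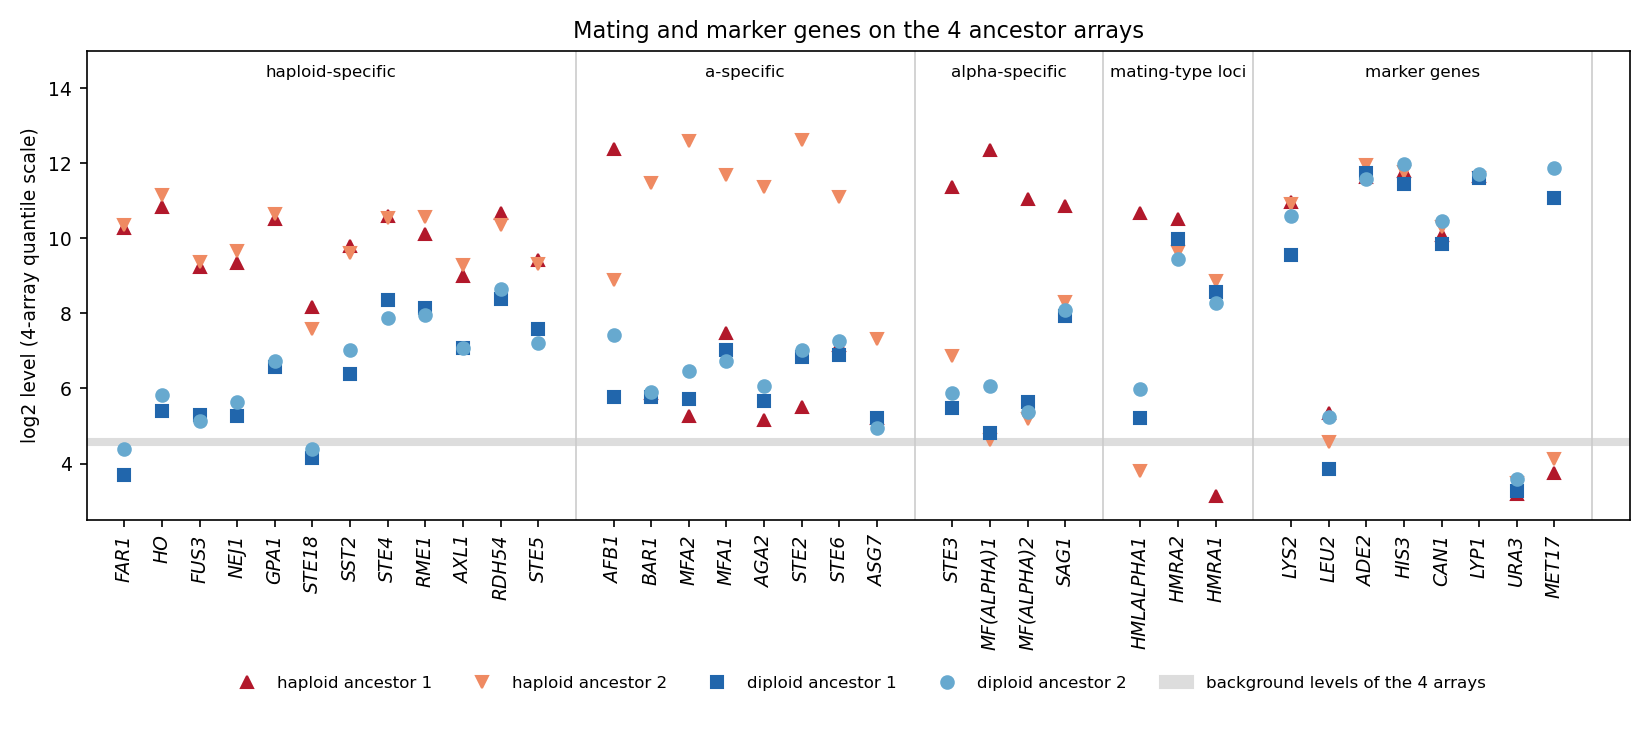
Log2 level (y axis) on the 4 ancestor arrays of each measured gene (x axis) of 5 lists, with the grey band marking the background levels of 4.49 to 4.65. All 12 haploid-specific genes have both haploid symbols above both diploid symbols, while in the a-specific and alpha-specific lists 1 haploid array usually stands apart from the other 3 arrays.

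The mating types of the haploid arrays were read from the type-specific genes, since the labels do not give them. Alpha-factor gene MF(ALPHA)1 read 12.36 on haploid array 1, 4.62 on haploid array 2, and 4.83 and 6.08 on the diploid arrays. STE3, the a-factor receptor of alpha cells, read 11.38 and 6.87 in the haploids and 5.49 and 5.87 in the diploids. MF(ALPHA)2 and SAG1, the alpha-agglutinin, were also highest on haploid array 1, at 11.05 and 10.85. The a-cell genes stood the other way round, with the alpha-factor receptor STE2 at 5.50 on haploid array 1, 12.61 on haploid array 2, and 6.83 and 7.03 on the diploid arrays. Haploid array 1 thus had an alpha pattern and haploid array 2 an a pattern.

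MFA1 and MFA2, the a-factor genes, read 11.68 and 12.58 on haploid array 2 and at most 7.48 on the other 3 arrays. BAR1, the protease that degrades alpha-factor, read 11.47 there against 5.77 to 5.90 elsewhere. AGA2, the a-agglutinin subunit, STE6, the a-factor exporter, and ASG7 were likewise highest on haploid array 2, at 11.37, 11.09 and 7.31. AFB1 had been placed in the a-specific list but is known as the a-factor barrier of alpha cells, and it read 12.37 on haploid array 1, 8.89 on haploid array 2, and 5.78 and 7.41 on the diploid arrays. Over the list the median difference of haploid array 1 minus haploid array 2 was -4.90 with AFB1 included, and over the 4 alpha-specific genes it was 5.18.

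No type-specific gene passed limma between the ploidies, 0 of 8 and 0 of 4. With 1 haploid array of each pattern, most of these genes were high on 1 haploid array and low on the other. That spread left limma little room for a call. The medians of the haploid minus diploid differences, 2.56 and 2.82, average unlike arrays and do not measure ploidy. Both haploid arrays lay above both diploid arrays for 2 of 8 and 2 of 4 genes, against 12.4% of all genes. These were MFA1 and AFB1, and STE3 and SAG1. For STE3 the lower haploid value still exceeded the diploid ones by 1.003, and for SAG1, with 8.31 against 7.92 and 8.09, by 0.22. On the a-pattern array STE3 and SAG1 were thus above both diploid arrays, while MF(ALPHA)1 and MF(ALPHA)2, at 4.62 and 5.19, were below both.

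The mating-type loci had 3 probe sets, and the sequences at MAT have silent copies at HML and HMR, so a probe set cannot be tied to 1 copy. The probe set named HMRA1 read 3.14, below background, on the alpha-pattern haploid, 8.87 on the a-pattern haploid and 8.57 and 8.27 on the diploids. HMLALPHA1, the activator of alpha genes, read 10.67, 3.81, 5.22 and 5.99 in the same order. It was therefore above background in both diploids, at levels far under that of the alpha-pattern haploid. HMRA2 read 9.45 to 10.52 on all 4 arrays. For the other 3 genes of the loci, no values are given here.

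Common marker genes were set apart, since laboratory strains of different ploidy often differ by deleted or inserted markers. MET17, the homocysteine synthase of methionine synthesis, read 3.74 and 4.12 in the haploids, below background, and 11.07 and 11.86 in the diploids. It was at least 123-fold lower in the haploids (limma adjusted p = 0.000341). None of the 28 other methionine and sulfur genes passed limma, and their median difference was 0.05. MET17 was on the haploid side on all 15 of the other haploid and spore arrays. It was also there on 16 of the 21 other diploid arrays. All 16 were evolved lines, at 3.94 to 4.74 on the scale of all 40 arrays. The other 5 read 10.9 to 13.1. They were the unevolved trisomic and monosomic clones, the ancestor on minimal medium and both evolved arrays of trisomic descent. MET17 thus did not follow ploidy across all arrays. Among unevolved cultures it was low in the haploids and high in the diploids, and the cause was not tested.

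The other markers did not pass. LYS2 read 10.96 and 10.92 against 9.56 and 10.58, groups that did not overlap. HIS3, ADE2, CAN1 and LYP1 had differences between -0.03 and 0.13, with haploid and diploid values that overlapped. LEU2 was near background, with 5.33 and 4.58 against 3.85 and 5.24, and URA3 was below it on all 4 arrays, at 3.20 to 3.58.

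Apart from the 12 haploid-specific genes, 9 genes rose in the haploids, TEC1 among them. FUS1, a membrane protein of cell fusion that pheromone signalling induces, read 8.56 and 8.99 against 5.28 and 6.26 and was 8.02-fold higher (limma adjusted p = 0.0326). It was the 1 gene of 14 pheromone-induced genes to pass, in a list whose median difference was 0.89 and in which 10 genes had both haploid arrays above both diploid ones, against 12.4% of all genes. AGA1, the anchor of the agglutinins, read 9.70 and 9.31 against 7.07 and 7.81 (limma adjusted p = 0.0525). PRM1, which acts in membrane fusion, read 6.36 and 6.06 against 4.84 and 5.01. Neither passed. GIC2, an effector of Cdc42 in polarity, differed by 1.17 ± 0.18, FIG1 by 1.13 ± 0.39, PRM2 by 1.01 ± 0.41 and KAR4, a regulator of nuclear fusion genes, by 0.77 ± 0.16, without overlap and without passing. KAR5, CIK1, FUS2 and PRM3 differed by at most 0.31.

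MSB2, a mucin that senses signals at the top of the filamentous growth and osmotic pathways, read 10.91 and 10.61 in the haploids and 9.27 and 9.39 in the diploids. It was 2.69-fold higher (limma adjusted p = 0.0334). ICS2, a gene of unknown function, read 9.54 and 9.98 against 5.61 and 6.77 and was 11.9-fold higher, and its chromosomal neighbour AMN1, which acts in daughter cells to turn off mitotic exit, read 12.44 and 12.40 against 11.36 and 11.45. AMN1 was 2.03-fold higher, and both had a limma adjusted p of 0.0234.

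SNO3, of a gene family linked to vitamin B6, read 8.61 and 8.65 against 6.84 and 6.55 (limma adjusted p = 0.0138). Its neighbour SNZ3 read 8.84 and 9.38 against 7.86 and 7.31 and did not pass (limma adjusted p = 0.144). SNO3 has near-identical relatives, and its probe set is of a type shared by several transcripts, so its value is uncertain. The remaining genes that rose have systematic names only. YGR109W-A, also on a shared probe set, was 4.71-fold higher, YCL021W-A 4.49-fold and YAR068W 2.73-fold, with limma adjusted p values of 0.0334, 0.0448 and 0.0268.

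Besides MET17, 2 genes fell. IME4, which encodes the methyltransferase for N6-adenosine in messenger RNA and promotes meiosis in diploids, read 4.33 and 3.73 in the haploids, below background, and 7.48 and 7.75 in the diploids. It was at least 8.49-fold lower (limma adjusted p = 0.00939). The other 17 genes of the meiosis and sporulation list did not pass, including the regulator IME1 with 7.74 and 7.37 against 7.74 and 7.74. QDR2, a multidrug transporter of the plasma membrane, read 8.21 and 8.44 against 9.58 and 9.65 and was 2.44-fold lower (limma adjusted p = 0.0433). QDR2 and, among the genes that rose, AMN1, SNO3, YAR068W and YGR109W-A were the least stable calls. They passed in none of the 4 limma fits that left out 1 array, with adjusted p values of 0.0783 to 0.326 for QDR2.

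**Figure D3:**
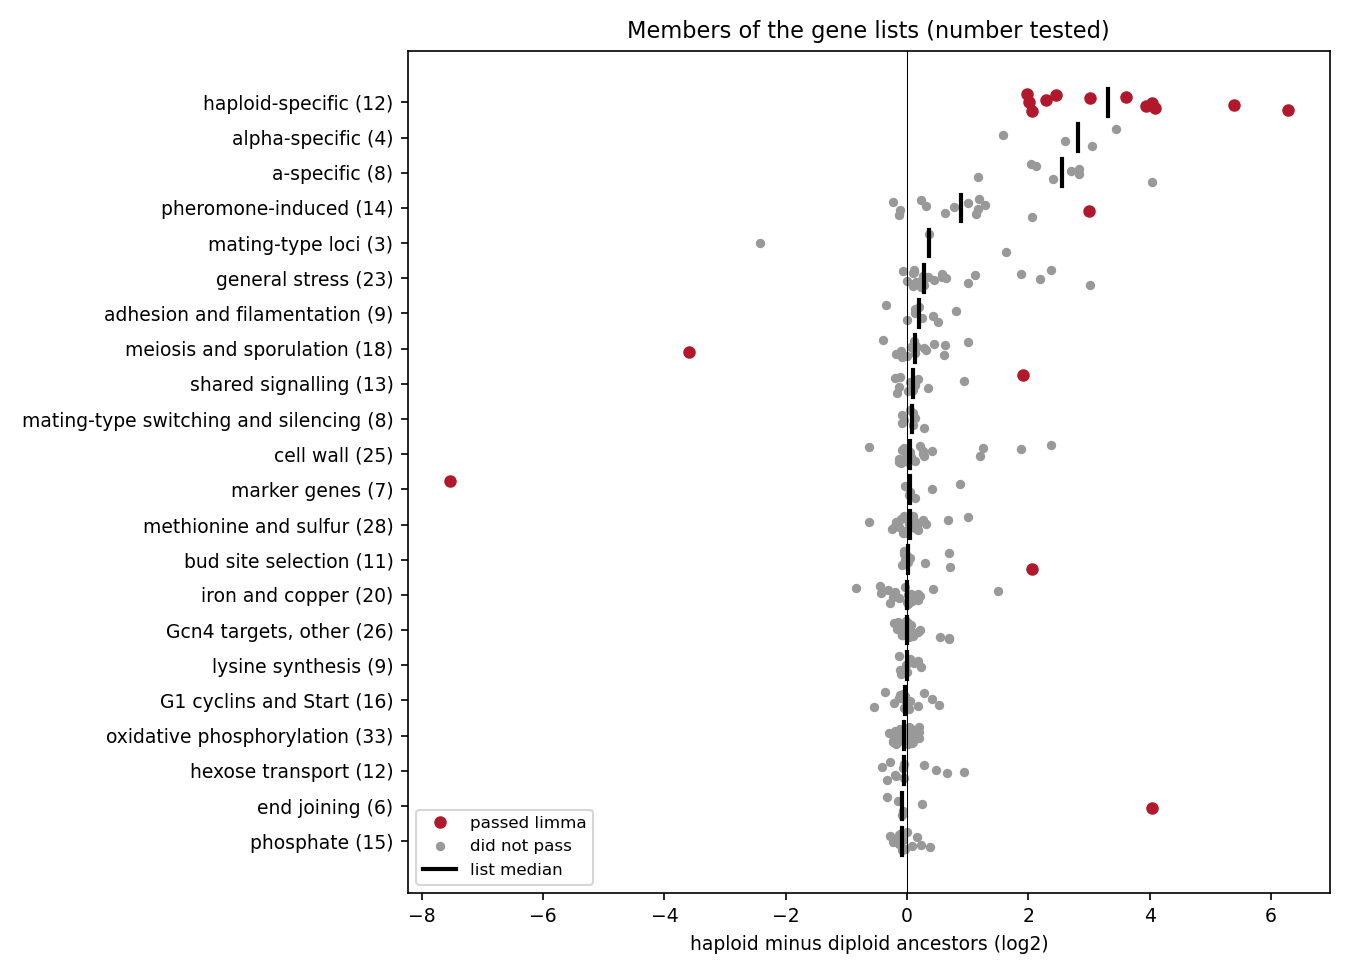
Haploid minus diploid log2 difference (x axis) of every tested member of the gene lists (y axis, with the number tested), red where limma passed and grey where not, with a black bar at each list's median. The haploid-specific list is the 1 list whose every member passed, and lists of growth, cell cycle and metabolism have medians within 0.3 of 0. All lists were chosen with earlier results of these data known.

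A further 16 genes had a gap of at least 1 and did not pass limma. YLR031W came closest, with 6.37 and 6.91 against 4.21 and 4.34, the latter below background (limma adjusted p = 0.0511), while YCL021W-A stood just inside at 0.0448. GPG1, linked to the glucose-sensing G protein, read 7.46 and 7.37 against 5.64 and 5.90. NDJ1, known for its role at telomeres in meiosis, read 5.48 and 6.12 in the haploids and 3.41 and 3.60, below background, in the diploids. HPF1, a mannoprotein of the cell wall, was the 1 gene lower in the haploids in this set, at 11.35 and 9.40 against 13.13 and 13.15, and the haploid arrays stood 1.95 apart. The next 11 genes by gap on the lower side differed by -1.14 to -0.61, and none passed. Among them, PGU1, a polygalacturonase, read 5.21 and 6.02 against 6.84 and 6.68, MIG2, a repressor in glucose signalling, 9.52 and 8.74 against 10.07 and 10.28, and FUI1, the uridine permease, 11.19 and 11.24 against 11.80 and 11.88. The others were YKR041W, YGR035W-A, SLO1, SDS3, RGM1, YBR013C, KDX1 and GPD2.

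Stress and wall genes supplied several of the rest. DDR2, a stress-induced gene, read 9.64 and 10.05 against 7.56 and 6.08, YGP1, a secreted glycoprotein, 11.86 and 12.28 against 9.22 and 10.16, and SPI1, a cell wall protein, 10.59 and 10.29 against 8.98 and 8.15. Their limma adjusted p values were 0.0832, 0.0511 and 0.0832. Of 23 general stress genes none passed, and the median difference was 0.29. In 7 both haploid arrays lay above both diploid arrays and in 0 below, beside 12.4% and 18.0% over all genes. For HSP12, a small heat shock protein, the values were 11.19 and 13.38 against 13.06 and 10.62, so arrays of 1 label differed more than the ploidies did.

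In lists tied to growth and metabolism no gene passed. The 16 genes of G1 cyclins and Start had a median difference of -0.03 with none passing. The largest in size were CLB6, a B-type cyclin, at 8.85 and 9.03 against 9.58 and 9.40, and CLN2, a G1 cyclin, at 9.96 and 9.93 against 9.59 and 9.26. The 25 cell wall genes had a median of 0.06, with 8 genes above and 2 below without overlap, beside 12.4% and 18.0% over all genes. The 9 genes of adhesion and filamentation had a median of 0.19, with 4 above and 0 below, beside the same shares over all genes. The 33 genes of oxidative phosphorylation had -0.05, the 12 of hexose transport and its sensing and control -0.06 and the 20 of iron and copper 0.00. In the last list FRE7, a ferric and cupric reductase, read 6.95 and 6.53 against 4.66 and 5.84, and SIT1, a siderophore transporter, 8.96 and 9.93 against 10.52 and 10.05. No difference smaller than that of AMN1, 1.02, passed in this comparison.

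Differences within a label set the scale for these values. Between the haploid arrays 112 genes, 2.11%, differed at least 2-fold, and between the diploid arrays 93 genes, 1.75%. Outside the mating lists, the genes furthest above on haploid array 1 were HSP30, a heat shock membrane protein, at 11.06 against 6.67, FBP1, of gluconeogenesis, at 8.77 against 5.27, and SHH3, STP4 and TDA6. On haploid array 2 they were HSP12, GPH1, which breaks down glycogen, at 10.38 against 8.35, HSP26 at 11.58 against 9.61, PGM2 and MET2. HSP30 also differed between the diploid arrays, at 10.56 and 7.22, and TDA6 at 8.96 and 6.88. No test was made of single arrays.

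The 24 genes were then looked up on the 36 arrays that had played no part in calling them. The scale came from quantile normalization of all 40 arrays. Many of the 36 arrays shared an inferred run with an ancestor array placed in the same ploidy group. An offset of such a run would carry over to them, and this was not tested. Each array was placed on the haploid or the diploid side of the midpoint between the ancestor groups. On the 21 other diploid arrays, 20 to 24 of the 24 genes were on the diploid side, and 19 genes were there on all 21. MET17 supplied most exceptions. The rest were AXL1, FUS1, YCL021W-A and YAR068W on the diploid ancestor on minimal medium, and AXL1 and YCL021W-A on both arrays of the trisomic descent on minimal medium, with FUS1 on its replicate 1. The clone labelled monosomic for chromosome III, which carries the mating-type locus, had 24 of 24 on the diploid side. It read 6.11 for HO, 7.61 for IME4 and 8.16 for HMRA1. Its median log2 level of chromosome III relative to the ancestors was -0.42, and that of the trisomic clone was 0.43. Whether all cells of the culture had 1 copy was not measured.

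The haploid and spore arrays divided more. Of the 8 spores of the line evolved at 39 °C, replicates 2, 4 and 6 had all 24 genes on the haploid side, replicate 8 had 22 and replicate 3 had 21. Replicates 1, 5 and 7 had only 4. In these last the level of HO was 5.27, 5.60 and 5.42, against 10.94 to 11.19 in the other 5 spores and up to 11.33 in the haploid ancestors. Replicates 1, 5 and 7 thus read like diploids for HO although their labels call them spores.

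IME4 showed the same order, at 8.08, 7.62 and 7.88 in replicates 1, 5 and 7 and at most 4.22 in the other 5 spores. HPF1 read 13.30, 13.32 and 13.34 there, beside 10.04 to 10.89 in the other 5 and 13.33 in diploid ancestor 1. MSB2 went another way, with 11.33, 10.27 and 11.26 in replicates 1, 5 and 7, all above the highest diploid array, at 10.03. The genes left on the haploid side were FUS1, MET17 and MSB2 in each of these spores, with YCL021W-A in replicates 1 and 7 and QDR2 in replicate 5.

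Spores 1, 5 and 7 also had no clear mating-type pattern. MF(ALPHA)1 read 5.53, 7.45 and 6.19, STE2 6.19, 6.65 and 6.19, and HMRA1 9.14, 8.90 and 9.04. Replicates 2, 4, 6 and 8 had the alpha pattern, with MF(ALPHA)1 at 13.31 to 13.76, and replicate 3 the a pattern, with STE2 at 12.42. The median log2 level of chromosome III relative to the ancestors was 0.80, 0.83 and 0.82 in replicates 1, 5 and 7 and 0.86 in replicate 2, while it lay between 0.00 and 0.05 in the other 4. Replicate 2 shared the raised chromosome III but differed from these 3 spores at the mating-type loci as well as in the gene pattern. Its HMRA1 read 3.14, and its HMLALPHA1 read 11.63, against 4.71, 5.04 and 4.36 in replicates 1, 5 and 7. The part of chromosome III in the gene pattern was not tested.

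**Figure D4:**
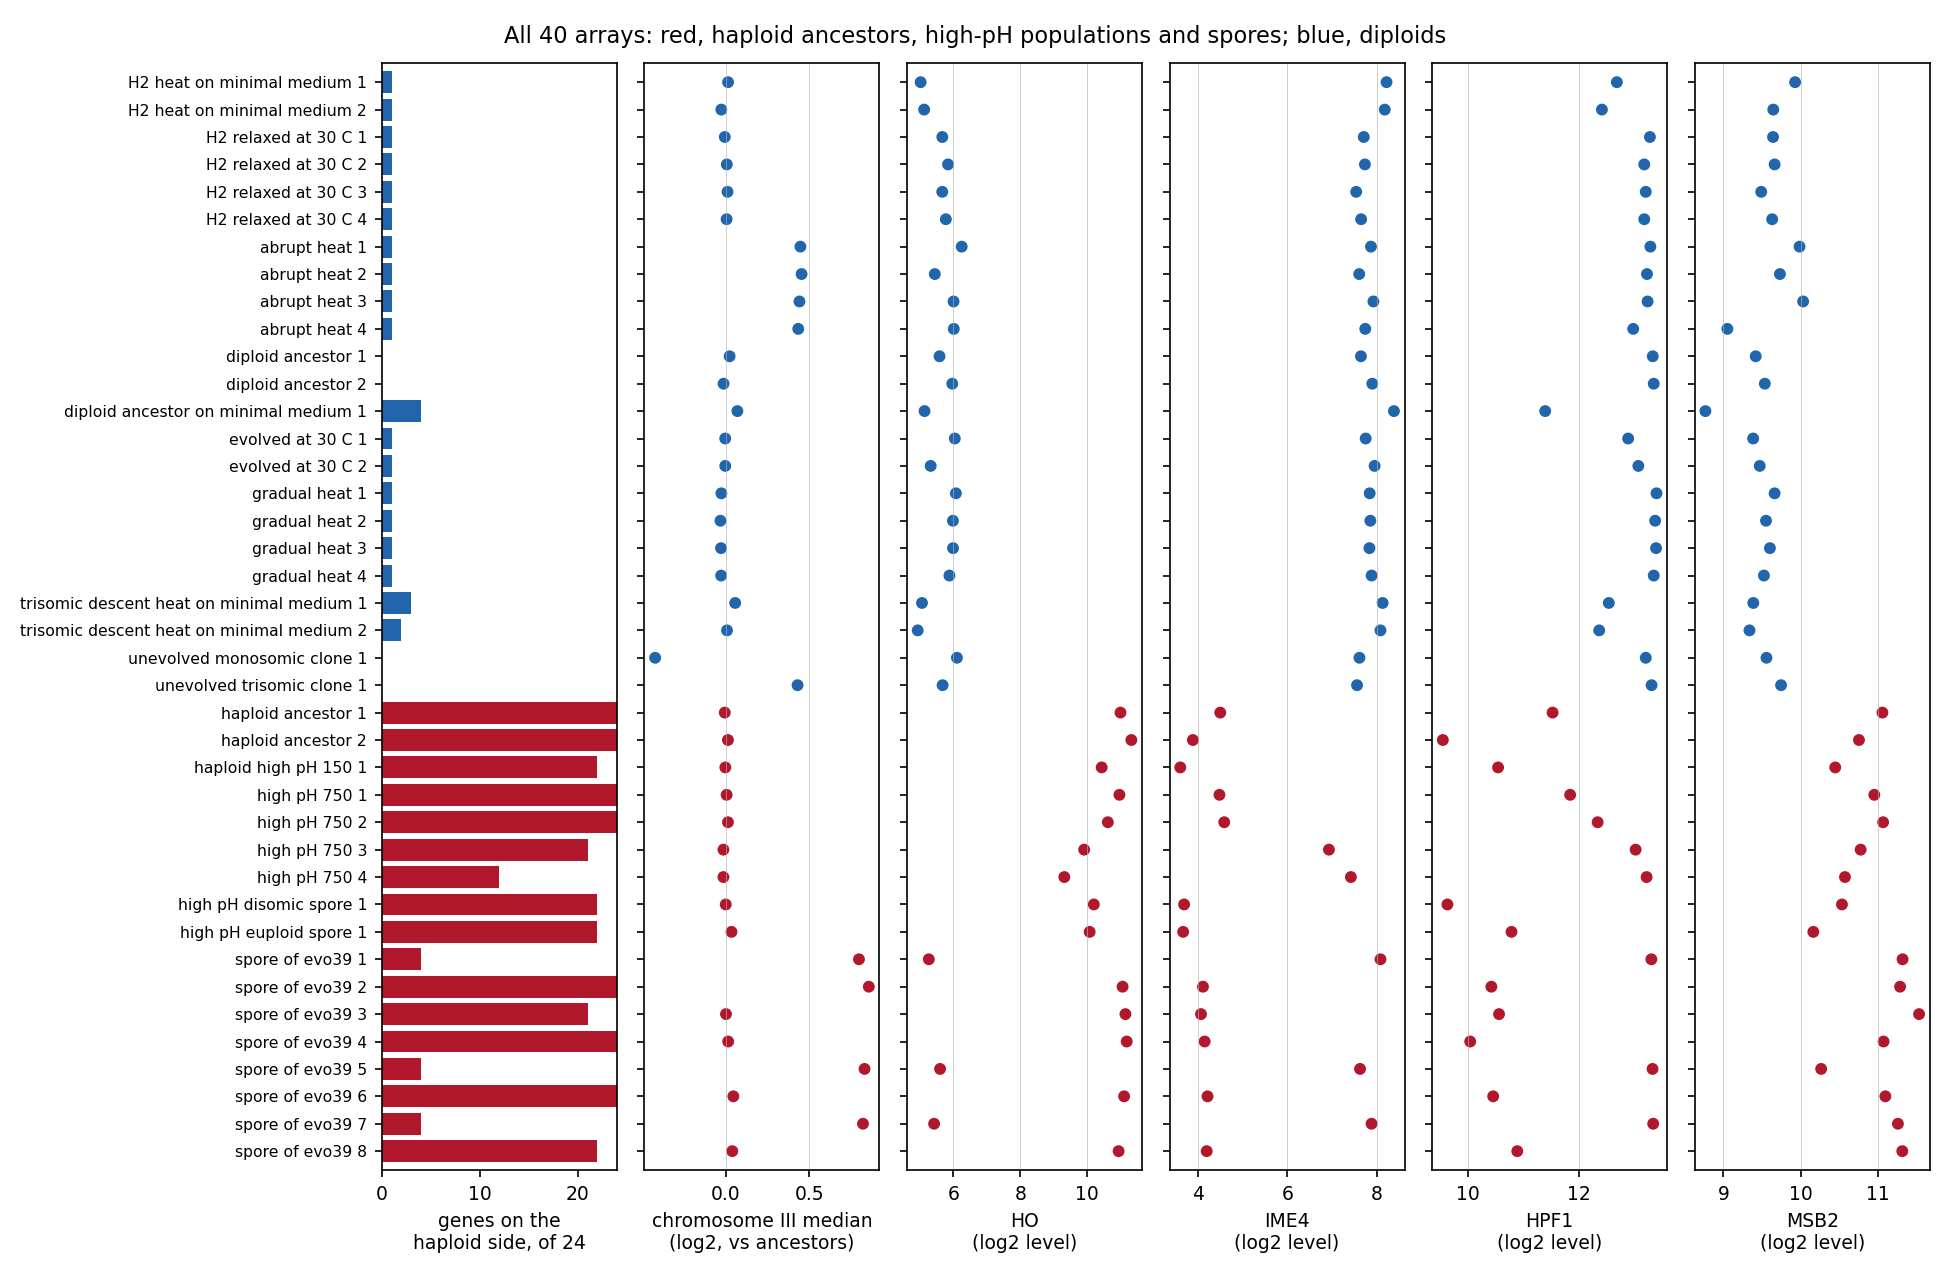
For each of the 40 arrays (y axis), the number of the 24 genes on the haploid side, the median log2 level of chromosome III against the ancestors, and the log2 levels of HO, IME4, HPF1 and MSB2. Red marks haploid ancestors, high-pH populations and spores and blue marks diploids, and evo39 spores 1, 5 and 7 have diploid-like HO, IME4 and HPF1 levels but MSB2 at 10.27 to 11.33.

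Arrays from the high-pH evolution, whose labels at 750 generations name no ploidy, were placed with the haploids. The population after 150 generations and both spores had 22 of 24 genes on the haploid side. After 750 generations replicates 1 and 2 had 24, replicate 3 had 21 and replicate 4 had 12. HO did not reach the diploid level in any of them, with 10.97, 10.62, 9.91 and 9.32 in replicates 1 to 4, but IME4 read 4.49, 4.59, 6.93 and 7.42 and HPF1 11.84, 12.33, 13.02 and 13.22. In replicates 3 and 4 IME4 and HPF1 were thus closer to the diploid ancestors, and HO closer to the haploid ones. All 4 had the a pattern, with STE2 at 12.33, 12.27, 11.61 and 11.04. Chromosome V, whose median was 0.75 after 150 generations, stood at 0.02, 0.01, 0.26 and 0.32 in these replicates, and its part in the pattern was not tested.

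Mating type did not follow the inferred run. Haploid ancestor 1 with its alpha pattern was placed in a run with the high-pH populations of 750 generations, which had the a pattern. Haploid ancestor 2 with its a pattern was placed in a run with the 8 spores, of which 4 had the alpha pattern.

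Across these 36 arrays the difference between the ploidies had the same sign as in the ancestors for all 24 genes. With the run as a random block, whose correlation was 0.672, limma called 1 gene higher (0.0186% of 5366) and 1 lower (0.0186%), and neither was among the 24. These were YHL012W, at 1.42 ± 0.27, and MRPL35, of the mitochondrial ribosome, at -0.73 ± 0.14, both with a limma adjusted p of 0.0276. In the ancestors YHL012W differed by 1.10 and MRPL35 by -0.45, and neither passed. Without the run block 666 of the 5366 genes were higher and 845 lower, and 23 of the 24 were among them. That fit treated arrays of 1 run as independent and called a large part of all genes. Its count is thus no separate evidence for the 24. HO differed by 4.07 ± 1.41 with the block (limma adjusted p = 0.354), and MSB2 by 1.25 ± 0.28 (limma adjusted p = 0.0900). MSB2 was the 1 gene of the 24 whose other haploid and spore arrays, at 10.17 to 11.54, did not overlap the other diploid arrays, at 8.77 to 10.03. Over all 5366 genes, 4 (0.0745%) lay apart in this way with the haploids higher and 7 (0.130%) with the haploids lower.

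The 4 spores with a raised chromosome III decided this count. Left out, as an alternative chosen after seeing the data, they gave 41 genes higher (0.765% of 5359) and 11 lower (0.205%), with 18 of the 24 among them. Since 3 of these 4 spores had already been seen on the diploid side for most of the 24 genes, this count shows only how far they weigh on the result, and it is no separate evidence for any gene. The 6 of the 24 not called even then were AMN1, FUS1, MET17, YAR068W, YCL021W-A and YGR109W-A.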

How the data were processed

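Total RNA was copied to cDNA from poly(T) primers and hybridised to one-colour Affymetrix arrays, per the labels' protocols. The authors used RMA, per the submitters' processing notes, and deposited log2 values. Neither the RMA version nor the array's genome build is given in the sources used here. Depth has no meaning for arrays, and their number limits the precision. Runs were inferred from values identical on different arrays (at least 0.1% shared), which gave 9 runs, each of 1 ploidy. The 4 ancestor arrays came from 4 runs.

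The RefSeq R64 table gave names to 5498 of 10928 probe sets (5449 genes), and probe sets of a gene were averaged. The 4 arrays were quantile-normalized with limma 3.58.1 in R 4.3.3. Background was the 95th percentile of 1746 probe sets of other species on each array, and genes above it on at least 2 of 4 arrays were tested with lmFit and eBayes (trended prior), with Benjamini-Hochberg adjustment at 0.05. Where a group was below background on both arrays, the fold is a bound against background. For the other 36 arrays, all 40 were quantile-normalized, with the run as a random block (duplicateCorrelation).

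Named genes were drawn from every member of the mating-type, haploid-specific and marker lists, the 15 widest gaps each way, 3 genes per other list and the 5 largest differences between the haploid arrays each way. Other genes that passed limma or had a gap of at least 1, and those given beside them, were named after their values were seen. The members and lists were chosen with earlier results of these data known. The promoter motif of the a1 and alpha2 repressor was not analysed here, and 1 gene list is not reported here.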

Additional observations from a re-analysis of the deposited data

Results flagged for a closer look

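Within groups of 4 or 8 arrays, 90 sets of values were searched for an array that stood far from the rest. Of these, 9 had one. The sets came from the mating, haploid-specific and marker genes and the other called genes. They did not cover each of these genes in each group of 4 or 8 arrays. All 9 flags lay in the evo39 spores or the high-pH populations of 750 generations, and nothing is said here of the other groups. Chance alone marks about 1 in 20 such sets. In 7 of the 9 the array was replicate 3 of the evo39 spores, whose a-cell genes were high. It read 10.5 for MFA1, 12.3 for MFA2, 12.4 for STE2, 11.01 for STE6, 11.1 for BAR1, 10.7 for AGA2 and 7.20 for ASG7. The other 7 spores reached at most 7.32 for any of these genes. MSB2 was low in replicate 5 of the spores, at 10.3, with the other spores at 11.1 to 11.5. LYP1, a lysine permease, read 11.99 in replicate 1 after 750 generations at high pH, where the other 3 replicates read 11.83 to 11.85.

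Of 3683 probe sets without a gene name, which no comparison used, 539 were above background on at least 2 ancestor arrays and 3 had a gap of at least 1. The first read 9.60 and 9.52 in the haploids and 6.20 and 7.01 in the diploids, a difference of 2.96. The second read 10.49 and 8.20 against 12.89 and 12.67, a difference of -3.44, and the third read 6.58 and 4.34 against 9.34 and 9.30, a difference of -3.86. None of the 3 was tested.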

How the results depend on the processing

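No haploid-specific median changed direction under any setting tried, but the balance over all genes did. None of the 24 calls changed direction when 1 ancestor array was left out. Other named genes could, above all those that follow mating type. STE2 read 5.50 on haploid array 1, below both diploid arrays, and 12.61 on haploid array 2. No paired analysis was possible because the labels give the ancestor arrays no replicate numbers. Deposited values, without a common scale, moved the median of all genes from -0.03 to 0.40 and gave 906 genes above and 8 below both diploid arrays where the common scale gave 656 and 953, 53 with a gap of at least 1 above and a haploid-specific median of 3.81, with 12 of the 24 calls and 8 of the 12 haploid-specific ones shared. Equal array medians gave 37 genes called higher. Genes above background on all 4 arrays gave 1 call lower, 2 wide gaps below and a haploid-specific median of 2.73, because IME4, MET17, FAR1 and STE18 were not tested. A fit of all 40 arrays called 41 higher and 19 lower and shared 9 of the 24, with 2 haploid-specific genes. Leaving out each ancestor array in turn gave 8 to 21 genes called higher and 1 to 4 lower, 1374 to 1607 genes above and 1758 to 2010 below without overlap, 52 to 72 and 6 to 17 with a gap of at least 1, and a haploid-specific median of 3.09 to 3.53. The lowest count, 8, came without diploid array 1, and leaving out either diploid array left 1 call lower. A lone array was then assumed to vary like the other group. FAR1, FUS3, GPA1, HO, MET17, NEJ1, SST2 and STE4 passed each time, and AMN1, QDR2, SNO3, YAR068W and YGR109W-A never did. In the other 36 arrays no run block gave 666 higher and 845 lower, leaving out minimal medium 0 higher, deposited values 0 higher and 0 lower (15 and 0 at unadjusted p under 0.05), and leaving out the 4 spores with a raised chromosome III, chosen after seeing the data, 41 and 11. With 2 arrays per group, small differences could not be resolved.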
